A study of Mus musculus with 18 samples.

Results

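The AP-1 factor genes were followed through open chromatin regions in naive CD4 T cells of the mouse. The 8 genes were Fos, Fosb, Fosl1, Fosl2, Jun, Junb, Jund and Batf, and their regions were chosen by position alone. Peaks of all 18 deposited peak lists that overlapped by at least 1 bp were merged into union regions on build mm10, and a region was given to a gene when that gene had the nearest protein-coding gene end within 100000 bp of the region's centre. This gave 27 AP-1 gene regions of 33115 union regions. Fos had 8, Jun 6, Fosb 4, Junb 3, Jund and Batf 2 each, and Fosl1 and Fosl2 1 each.

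Chromatin was assayed by ATAC-seq, in which the Tn5 transposase inserts adapters into accessible DNA. The cells were freshly prepared, untreated naive CD4+ T cells from mice of the strain C57BL6/J, labelled WT and carrying an Nr4a1-dsGFP reporter that marks tonic stimulation through the T cell receptor (TCR). The groups were mesenteric lymph node cells with high and low reporter signal, axillary lymph node cells with high and low signal, and spleen cells with high and low signal, with 3 libraries in each of the 6 groups. The study compared chromatin by the level of tonic stimulation and by lymphoid organ. The titles call the 3 libraries of a group biological replicates, but no label names the animals, and the p-values below rest on the spread between libraries, which may be technical. The labels used here give neither the build of the reporter nor the ages of the mice.

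AP-1 is a dimer of basic leucine zipper proteins, in which a Jun protein pairs with a Fos protein or with another Jun protein and binds short palindromic DNA sites. In T cells, TCR signals reach Fos through ERK and serum response factor and reach Jun through its phosphorylation by JNK, and AP-1 then works with NFAT at cytokine genes such as Il2. Fos, Fosb, Jun and Junb are immediate-early genes, which can be transcribed within minutes of a signal without new protein synthesis, and Batf is a small partner of Jun proteins that works with IRF4 in activated T cells.

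Mouse promoter sequences of 7 of the 8 genes were in the RefSeq table used here (GRCm38.p6), each from 250 bp before to 50 bp after the gene start, and Fosl1 had no entry. The sequences of Fos, Fosb, Jun, Junb and Batf are shown because a peak region covered 100% of each of these 5 windows. They lie at chr12:85473640-85473939 on the plus strand (Fos), chr7:19309996-19310295 on the minus strand (Fosb), chr4:95052173-95052472 on the minus strand (Jun), chr8:84978699-84978998 on the minus strand (Junb) and chr12:85686470-85686769 on the plus strand (Batf). Each is printed 5′ to 3′ along the gene. Capitals mark matches, on either strand, to the CRE core TGACG (part of the site that CREB and ATF proteins bind), to TGACATCA (a variant of the AP-1 and ATF site) or to the ETS core CCGGAAG.
Fos: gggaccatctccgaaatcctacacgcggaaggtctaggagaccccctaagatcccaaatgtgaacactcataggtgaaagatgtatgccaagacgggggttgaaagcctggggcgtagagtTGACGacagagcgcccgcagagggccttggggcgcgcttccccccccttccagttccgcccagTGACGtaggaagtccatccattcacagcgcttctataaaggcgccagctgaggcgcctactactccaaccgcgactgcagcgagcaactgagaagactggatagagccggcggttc
Fosb: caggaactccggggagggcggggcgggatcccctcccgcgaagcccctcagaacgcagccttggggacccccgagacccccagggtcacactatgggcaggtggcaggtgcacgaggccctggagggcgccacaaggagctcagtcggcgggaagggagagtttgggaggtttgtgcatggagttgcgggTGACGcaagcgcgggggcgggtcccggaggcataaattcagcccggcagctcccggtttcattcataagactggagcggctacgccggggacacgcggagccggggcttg
Jun: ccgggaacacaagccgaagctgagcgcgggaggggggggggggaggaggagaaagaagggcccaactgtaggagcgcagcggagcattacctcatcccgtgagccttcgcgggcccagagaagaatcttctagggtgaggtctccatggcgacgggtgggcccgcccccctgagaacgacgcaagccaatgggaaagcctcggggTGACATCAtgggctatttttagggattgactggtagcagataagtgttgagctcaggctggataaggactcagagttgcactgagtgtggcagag
Junb: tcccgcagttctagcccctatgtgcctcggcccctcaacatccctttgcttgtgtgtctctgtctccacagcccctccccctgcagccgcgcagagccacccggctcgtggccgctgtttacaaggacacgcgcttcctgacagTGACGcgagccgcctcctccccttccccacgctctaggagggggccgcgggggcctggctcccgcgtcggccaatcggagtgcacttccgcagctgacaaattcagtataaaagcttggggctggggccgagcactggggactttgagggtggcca
Batf: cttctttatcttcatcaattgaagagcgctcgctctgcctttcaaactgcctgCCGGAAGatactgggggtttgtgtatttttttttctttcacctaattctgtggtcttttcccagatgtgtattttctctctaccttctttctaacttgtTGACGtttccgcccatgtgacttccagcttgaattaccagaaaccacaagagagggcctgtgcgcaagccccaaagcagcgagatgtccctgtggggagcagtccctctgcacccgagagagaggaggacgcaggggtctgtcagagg

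The CRE core began 129 and 66 bp before the Fos start, 60 bp before the Fosb start, 106 bp before the Junb start and 98 bp before the Batf start. The Jun window held TGACATCA 45 bp before the start, and the Batf window held the ETS core 197 bp before the start. The full AP-1 site TGANTCA, the full CRE TGACGTCA and the CArG box of serum response factor had 0 matches in the 7 windows of member genes. Of all 32851 promoter windows in the table, 20.8% held the CRE core, 3.62% TGACATCA, 8.86% the ETS core, 7.81% TGANTCA, 1.79% the full CRE and 1.63% the CArG box. The CRE core and TGACATCA were added to the search after the sequences had been seen, and every TGACGTCA match also contains a CRE core. A match is a run of letters and not a measured binding site, and no match says only that these letters were not in the window.

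The lists held 14372 to 23129 peaks per library, and recovered depth was 8.48 to 16.6 reads per 10 kb of genome background, highest in the 3 mesenteric high libraries and lowest in the 6 axillary libraries and spleen low replicate 3. The fragment length estimated by the peak caller, read from the narrowest peak of a list, was 161 to 172 bp in the mesenteric libraries and in 5 of 6 spleen libraries. It was 216 to 236 bp in 5 of 6 axillary libraries, 176 bp in axillary high replicate 2 and 233 bp in spleen low replicate 3. Counts in the 18 pairs of libraries from one group differed by less than counting noise (chi-square per region between 0.511 and 0.632), as did those in the 135 pairs from different groups (between 0.621 and 0.938), and all libraries were kept as replicates. Standard errors and p-values of the summit reads below rest on this small spread and may be too small. The T cell genes Cd3e, Cd4, Lef1, Tcf7 and Ccr7 each had a region, the B cell genes Cd79a and Ms4a1 had none, and of 3 myeloid genes only Itgam had one, in at most 3 libraries. Of the other markers, the Cd8b1 and Klrb1c loci each had a region in all 18 libraries and Cd8a 1 in 1 library.

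Every AP-1 gene had at least 1 region, and 5 of the 8 had a region present in all 18 libraries. Of the 27 regions, 9 had a peak in all 18 libraries, 7 in 13 to 17, 5 in 6 to 12 and 6 in 1 to 5. Those present in every library made up 33.3% of AP-1 regions, against 26.4% of all union regions, and those in 1 to 5 libraries made up 22.2%, against 42.0%. AP-1 regions had a median width of 555 bp, against 425 bp over the series, and a median distance of 1584 bp from their centre to the gene end, against 8142 bp. A library had 15 to 23 of the 27 regions, with 21, 23 and 22 in mesenteric high, 18, 20 and 21 in mesenteric low, 15, 15 and 18 in axillary high, 16, 15 and 17 in axillary low, 19, 18 and 18 in spleen high and 21, 20 and 16 in spleen low libraries. As a share of all regions with a peak in the library, these counts were 0.0932 to 0.101% in mesenteric high, 0.105 to 0.123% in mesenteric low, 0.0957 to 0.123% in axillary high, 0.105 to 0.119% in axillary low, 0.102 to 0.111% in spleen high and 0.111 to 0.119% in spleen low libraries. The mesenteric high libraries, the deepest, were thus among the highest by number and among the lowest by share.

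**Figure D1:**
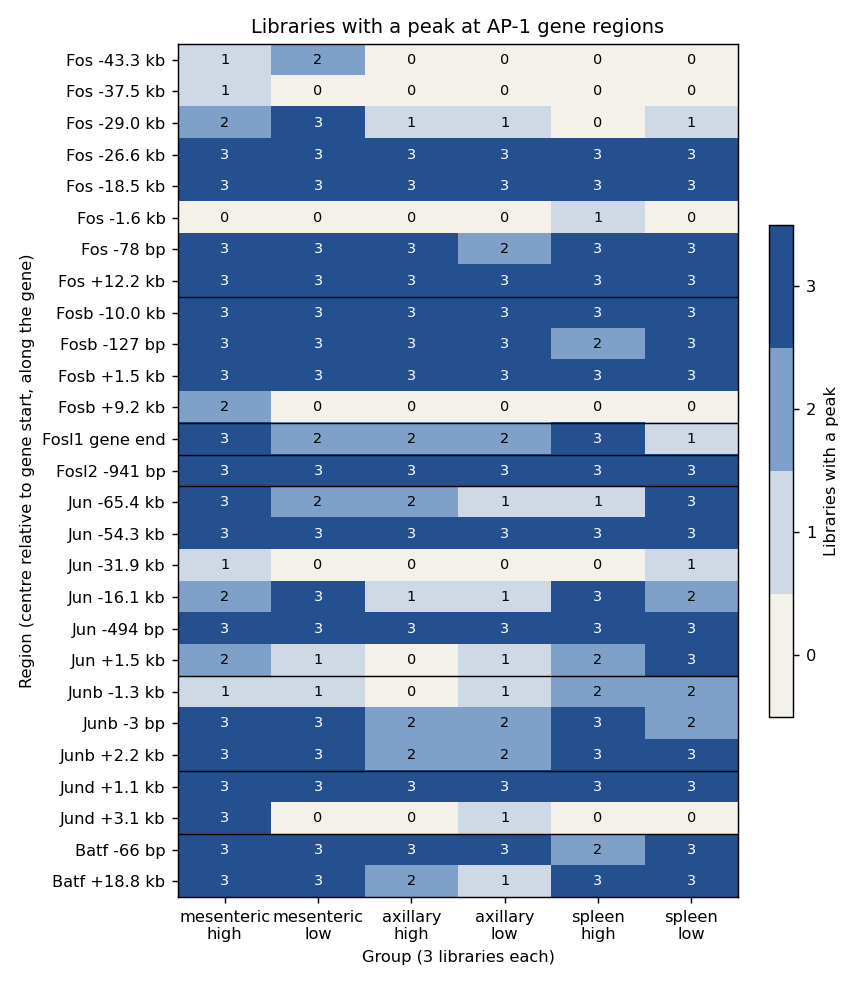
Number of the 3 libraries of each group (columns) with a peak at each of the 27 AP-1 gene regions (rows, named by the distance of the region's centre from the gene start along the gene). The 9 regions filled with 3 in every column are those present in all 18 libraries, and Jund +3.1 kb has 3 of 3 in mesenteric high and 0 of 3 in mesenteric low cells. The mesenteric high libraries were the deepest, and at equal list length Jund +3.1 kb kept 1 mesenteric high and 1 axillary low library. The share of all regions with such a pattern was not counted.

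Regions are named below by the distance of their centre from the gene start along the gene. Height is given as the number of reads at the summit of the peak, recovered as whole reads from the deposited fold enrichment and −log10 p and scaled to a common median per library ("scaled summit reads"). Rank percentiles place a peak within its own list by −log10 p, with 100 the strongest.

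Fos, the founding partner of Jun in AP-1, had 4 regions open in 17 or 18 libraries. The strongest lay 18.5 kb upstream (chr12:85455059-85455806), with a rank percentile of 91.3 ± 5.52 (SD, n = 18 libraries), the highest of any AP-1 gene region. It held 36.5 to 42.5 scaled summit reads in mesenteric high, 36.1 to 42.2 in mesenteric low, 31.6 to 40.9 in axillary high, 26.6 to 40.7 in axillary low, 37.2 to 38.8 in spleen high and 33.7 to 44.0 in spleen low libraries. All 6 groups overlapped there. Regions 26.6 kb upstream (chr12:85446932-85447565) and 12.2 kb beyond the start (chr12:85485754-85486406, 8806 bp past the far end of the gene) were also present in all 18 libraries, with rank percentiles of 55.6 ± 14.6 and 72.8 ± 13.8 (SD, n = 18). The region at the Fos start (chr12:85473375-85474249) covered the promoter printed above, was present in 17 libraries and missed 1 axillary low library, replicate 3. Its rank percentile was 52.8 ± 16.2 (SD, n = 17), and its summit lay at a median of -164 bp from the start.

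The other 4 Fos regions were seen in fewer libraries. The region 29.0 kb upstream (chr12:85444693-85445128) had a peak in 2 of 3 mesenteric high, 3 of 3 mesenteric low, 1 of 3 axillary high, 1 of 3 axillary low, 0 of 3 spleen high and 1 of 3 spleen low libraries. The region 43.3 kb upstream had 1 mesenteric high and 2 mesenteric low libraries and 0 of 12 others, and kept 0.95 mesenteric high and 1.85 mesenteric low libraries on average when all libraries were thinned to equal depth (20 draws). With every list shortened to the length of the shortest, it kept 1 mesenteric high and 1 mesenteric low library. Regions 37.5 kb and 1.6 kb upstream had 1 library each, mesenteric high and spleen high.

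Jun, the central subunit of AP-1, had its strongest region at the promoter. This region (chr4:95051925-95053507, 1583 bp wide, centred 494 bp upstream) had a rank percentile of 87.2 ± 4.66 (SD, n = 18) and 49 to 82 unscaled summit reads, with the summit at a median of -108.5 bp from the start and an SD of 31.3 bp over the libraries. Its deposited fold enrichment over local background was 5.19 to 6.64, lower than the 9.31 to 15.4 at the Fos region 18.5 kb upstream despite more summit reads, as the local background used by the caller was higher at the Jun start. A region 54.3 kb upstream (chr4:95106113-95107025) was present in all 18 libraries at 64.2 ± 11.0 (rank percentile, SD, n = 18). Regions 16.1 kb and 65.4 kb upstream (chr4:95068076-95068546 and chr4:95117354-95117807) had 12 libraries each, and a region inside the gene 1.5 kb from the start (chr4:95050545-95050944) had 9. A region 31.9 kb upstream had 2, 1 of them mesenteric high and 1 spleen low.

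**Figure D2:**
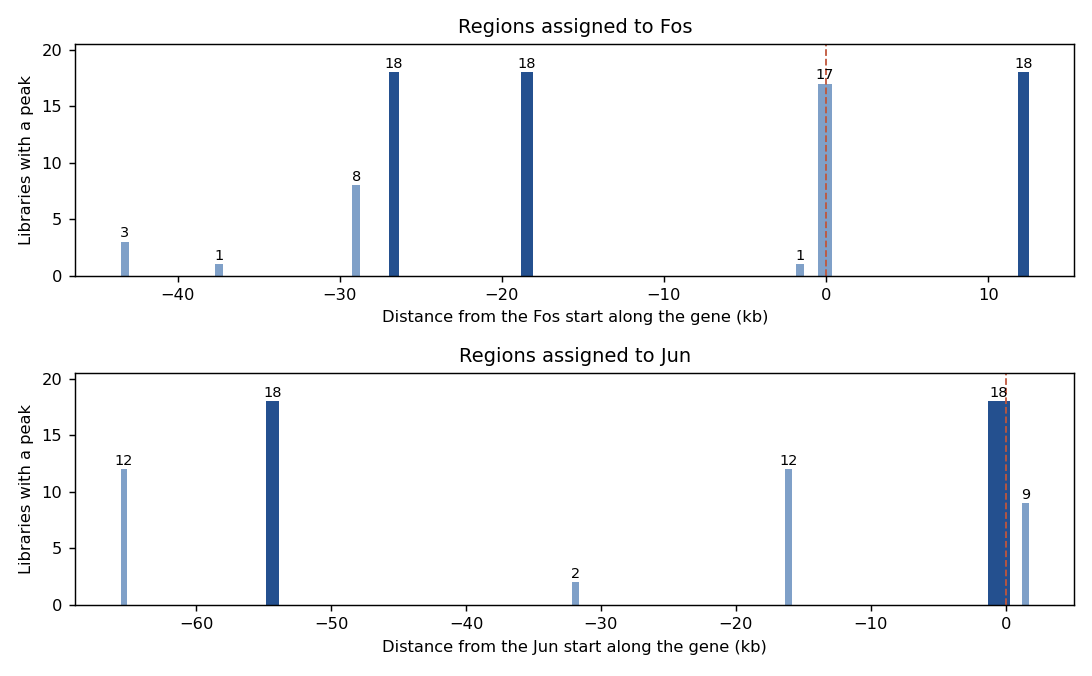
Regions assigned to Fos (top) and Jun (bottom), placed by the distance of the region's centre from the gene start along the gene in kb (dashed line, gene start) and drawn as wide as the region, or 0.5 kb where narrower; bar height is the number of the 18 libraries with a peak. Fos has 3 regions at 18 libraries and the region at its start at 17, and Jun has 2 regions at 18, 1 of them at its start.

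Fosb, a Fos paralogue that is also an immediate-early gene, had 4 regions. A region 10.0 kb upstream (chr7:19319799-19320353) ranked at 81.3 ± 9.32 and one 1.5 kb inside the gene (chr7:19308240-19308923) at 75.7 ± 12.2 (rank percentile, SD, n = 18 each). The region at the start (chr7:19309843-19310501) was weaker, at 40.6 ± 18.4 (SD, n = 17), and was missing in spleen high replicate 1. A region 9.2 kb past the start, 1849 bp beyond the far gene end, appeared in 2 mesenteric high libraries alone, in 1.25 of them on average at equal depth and in 0 at equal list length.

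Fosl2, which encodes Fra-2, had 1 region (chr5:32135031-32136031) in all 18 libraries, centred 941 bp upstream of the start. It ended before the promoter window began and ranked at 52.6 ± 12.8 (SD, n = 18). Fosl1, which encodes Fra-1, had 1 region (chr19:5447478-5447970), centred 26 bp inside one end of the gene, and the annotation table gives no strand for it. It had a peak in 3 of 3 mesenteric high, 2 of 3 mesenteric low, 2 of 3 axillary high, 2 of 3 axillary low, 3 of 3 spleen high and 1 of 3 spleen low libraries. Its summits held 6 to 18 unscaled reads, with a median of 8.

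Jund, the Jun gene known for steady expression in resting cells, had a region inside the gene 1.1 kb from its annotated start (chr8:70698369-70699399) in all 18 libraries, at 71.6 ± 11.0 (rank percentile, SD, n = 18). A smaller region 186 bp past the far end of Jund (chr8:70700632-70700972) had a peak in 3 of 3 mesenteric high, 0 of 3 mesenteric low, 0 of 3 axillary high, 1 of 3 axillary low, 0 of 3 spleen high and 0 of 3 spleen low libraries. At equal depth it was kept in 2.2 mesenteric high libraries on average and in 1 axillary low library, and at equal list length in 1 library of each of these groups. With 4 libraries it was outside the range tested for presence.

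Junb, which counts among the Jun proteins induced by TCR signals, had 3 regions and none in all 18 libraries. The region at its start (chr8:84978493-84979009) had 15 libraries and missed axillary high replicate 2, axillary low replicate 1 and spleen low replicate 3, and its summit lay at a median of -73 bp from the start. The region 2.2 kb past the start (chr8:84976151-84976850), 409 bp beyond the far gene end, had 16 libraries and missed axillary high replicate 2 and axillary low replicate 2. The region 1.3 kb upstream (chr8:84979905-84980252) had 7 libraries. Batf had a region at its start (chr12:85686330-85686979) in 17 libraries and another inside the gene 18.8 kb from the start (chr12:85705218-85705868) in 15, which missed axillary high replicate 1 and axillary low replicates 1 and 2. Over the 7 AP-1 regions with 13 to 17 libraries, 16 library values were missing, 1 of them mesenteric, 10 axillary and 5 spleen.

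No tested AP-1 gene region passed as different between high and low reporter cells in the presence of a peak. Regions in fewer than 6 or more than 12 libraries were not tested, among them Fosl1 with 8 of 9 high and 5 of 9 low libraries. Of the 5 regions present in 6 to 12 libraries, 0 passed the two-sided Fisher's exact test with Benjamini-Hochberg adjustment over all regions, where 0.0% of 5737 regions passed, and 0 had an unadjusted p under 0.05, where 6.1% of all regions had one. The lowest p of Fisher's exact test, at full separation of 9 high and 9 low libraries, is 4.11e-05. The smallest adjusted p of any region was 0.118, so the adjusted result says little about single AP-1 regions. The Fos region 29.0 kb upstream had 3 of 9 high and 5 of 9 low libraries (exact p = 0.637). The Jun regions 16.1 kb and 65.4 kb upstream each had 6 of 9 high and 6 of 9 low libraries, the Jun region 1.5 kb inside the gene had 4 of 9 high and 5 of 9 low, and the Junb region 1.3 kb upstream had 3 of 9 high and 4 of 9 low (exact p = 1 for each).

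Between organs, 0 of the 6 AP-1 regions present in 5 to 13 libraries passed after adjustment (exact Fisher-Freeman-Halton test, Benjamini-Hochberg), where 0.0% of 7630 regions passed, and 0 had an unadjusted p under 0.05, where 11.2% of all regions had one. The smallest adjusted p of any region in that test was 0.0881, so here too the adjusted result says little about single regions. The Fos region 29.0 kb upstream had 5 of 6 mesenteric, 2 of 6 axillary and 1 of 6 spleen libraries (exact p = 0.110). The Jun region 1.5 kb inside the gene had 3 of 6 mesenteric, 1 of 6 axillary and 5 of 6 spleen libraries (exact p = 0.114). The Jun region 16.1 kb upstream had 5 of 6, 2 of 6 and 5 of 6 in the same order of organs (exact p = 0.236).

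The remaining 3 had higher p-values still. The Junb region 1.3 kb upstream had 2 of 6 mesenteric, 1 of 6 axillary and 4 of 6 spleen libraries (exact p = 0.350), the Jun region 65.4 kb upstream had 5 of 6, 3 of 6 and 4 of 6 (exact p = 0.818), and Fosl1 had 5 of 6, 4 of 6 and 4 of 6 (exact p = 1). In 5 of these 6 regions the axillary libraries, with the lowest depth, did not exceed either of the other organs. At equal depth (mean of 20 draws) the axillary libraries with a peak numbered 1 at the Jun region 1.5 kb inside the gene, against 2.3 mesenteric and 3.8 spleen libraries, and 1 at the Jun region 16.1 kb upstream, against 3.05 and 2.75. They numbered 1.95 at the Jun region 65.4 kb upstream, against 3.35 and 3.15, and 1 at the Junb region, against 1.25 and 2.75. Axillary libraries stood below both other organs at these 4 regions and between them at the other 2, with 4.7 mesenteric, 3.75 axillary and 3.05 spleen libraries at Fosl1 and 4.35, 2 and 0.85 at the Fos region.

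Summit reads were compared with limma on log2 values in the 8442 regions with a recovered summit in all 18 libraries, among them 9 AP-1 regions. None of the 9 passed the adjusted threshold between high and low reporter cells, either over the 3 organs together or within an organ. High minus low averaged over organs, 0 of 9 AP-1 regions passed an adjusted p of 0.05 (limma, Benjamini-Hochberg over all regions), where 1.6% of all regions passed, and 0 had an unadjusted p under 0.05, where 14.2% of all regions had one. The 9 log2 differences lay between -0.07 and 0.19 with a median of 0.04, against a median of -0.02 over all regions, and their 95% confidence intervals reached from -0.30 to 0.42. The summits of these 9 regions held medians of 18 to 62.5 unscaled reads. In these bulk libraries a larger share of cells with open chromatin and more open chromatin per cell cannot be told apart. Over the 9 regions and 3 organs, the 3 high and the 3 low libraries did not overlap in 3 of 27 pairs of groups, where 15.7% of the pairs over all regions did not overlap. The high libraries were above in all 3, as in 6.49% of the pairs over all regions: Fosb 10.0 kb upstream in mesenteric cells, and Fos 26.6 kb upstream and the Jun promoter in axillary cells.

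**Figure D3:**
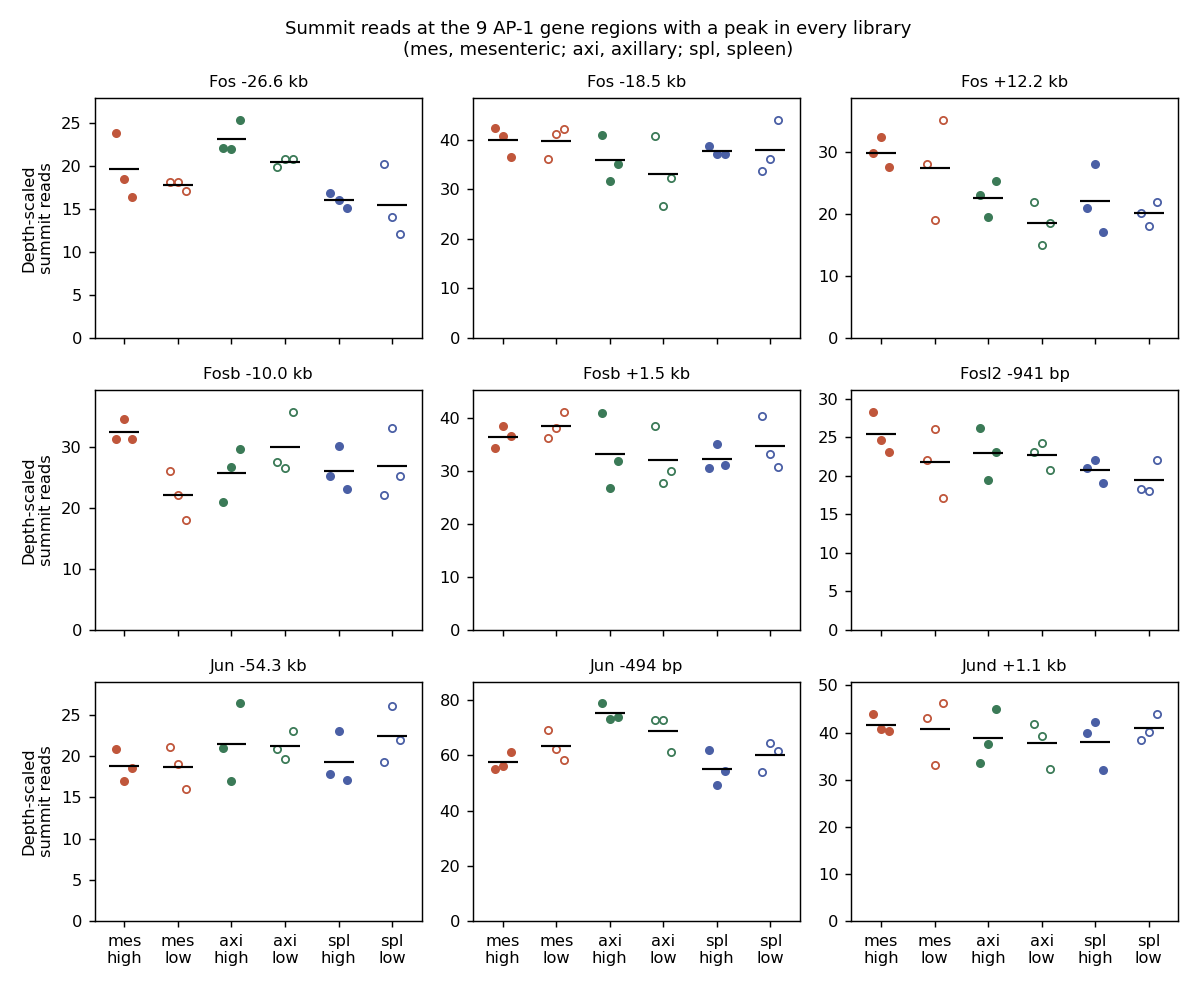
Scaled summit reads (vertical axes, from 0) at the 9 AP-1 gene regions with a peak in all 18 libraries; each point is a library (filled, high reporter; open, low reporter), grouped by organ and level, and the line is the mean of 3 libraries. High and low fail to overlap in 3 of 27 pairs of groups, against 15.7% of pairs over all regions, and the widest gap is at Fosb, 10.0 kb upstream, where the mesenteric high libraries (31.3 to 34.6) lie above the mesenteric low libraries (18.1 to 26.1).

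At the Jun promoter the log2 difference of high minus low was -0.04 (95% confidence interval -0.17 to 0.08), and at the Fos region 18.5 kb upstream it was 0.04 (-0.12 to 0.21). The highest was at the Fos region 12.2 kb past the start, with 0.19 (-0.03 to 0.42, adjusted p = 0.452 by limma). At the remaining regions it was 0.13 (Fos, 26.6 kb upstream), 0.11 (Fosb, 10.0 kb upstream), 0.11 (Fosl2), -0.05 (Fosb, 1.5 kb inside the gene), -0.07 (Jun, 54.3 kb upstream) and -0.01 (Jund).

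Within organs, 0 of 9 AP-1 regions passed in mesenteric cells, where 2.04% of all regions passed, 0 of 9 in axillary cells, where 0.308% passed, and 0 of 9 in spleen cells, where 0.213% passed (limma, Benjamini-Hochberg). At an unadjusted p under 0.05 the counts were 1, 0 and 0, where 13.4%, 9.58% and 8.37% of all regions had one. That 1 region lay 10.0 kb upstream of Fosb. It held 31.3, 34.6 and 31.3 scaled summit reads in mesenteric high libraries, against 26.1, 22.1 and 18.1 in mesenteric low libraries. The log2 difference was 0.57 (SE 0.18, 95% confidence interval 0.22 to 0.92, adjusted p = 0.0671 by limma). It missed the threshold, and the mesenteric high libraries were also deeper than the mesenteric low libraries (16.5 to 16.6 against 11.7 to 12.6 reads per 10 kb), whose part in the difference was not tested.

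In the other organs the same Fosb region held 21.0, 26.7 and 29.7 scaled summit reads in axillary high against 27.5, 26.6 and 35.8 in axillary low libraries, and 25.2, 30.1 and 23.1 in spleen high against 22.1, 33.1 and 25.3 in spleen low libraries. High and low overlapped in both. The difference of high minus low was larger in mesenteric than in axillary cells by 0.78 and than in spleen cells by 0.59 on the log2 scale. The unadjusted p were 0.00227 and 0.0196, and neither passed after adjustment over all regions (adjusted p = 0.238 and 0.335 by limma). Of all 8442 regions, 812 and 926 had an unadjusted p under 0.05 in these 2 comparisons, and 9 and 35 passed.

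Between organs, 2 of the 9 AP-1 regions were higher in axillary than in spleen cells and 2 differed between mesenteric and axillary cells. The shares of all regions passing were 6.83% for axillary minus spleen, 11.0% for mesenteric minus axillary and 1.46% for mesenteric minus spleen, where 0 of 9 AP-1 regions passed (limma, Benjamini-Hochberg). Counts of 2, 2 and 0 of 9 regions are too small to be set apart from those shares. The medians of the 9 log2 differences were 0.03, 0.03 and 0.08 in the same order, against 0.00, 0.01 and 0.00 over all regions.

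The Jun promoter, printed above, was the 1 AP-1 region that passed as higher in axillary cells against both other organs. It held 55.1, 56.2 and 61.1 scaled summit reads in mesenteric high, 69.3, 62.3 and 58.2 in mesenteric low, 78.7, 72.9 and 73.7 in axillary high, 72.6, 72.7 and 61.2 in axillary low, 61.9, 49.2 and 54.2 in spleen high and 53.9, 64.3 and 61.6 in spleen low libraries. The 3 axillary high and 2 of the axillary low libraries lay above every other library, and axillary low replicate 3 lay among the rest. The means were 60.4 ± 5.16 in mesenteric, 72.0 ± 5.77 in axillary and 57.5 ± 5.91 in spleen cells (SD, n = 6 each). Axillary minus spleen was 0.33 on the log2 scale (SE 0.08, 1.25-fold, adjusted p = 0.00359 by limma), and mesenteric minus axillary was -0.25 (SE 0.08, adjusted p = 0.0217). Mesenteric and spleen cells did not differ beyond their spread (0.07, 95% confidence interval -0.08 to 0.23).

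The Fos region 26.6 kb upstream was also higher in axillary than in spleen cells. It held 23.8, 18.5 and 16.4 scaled summit reads in mesenteric high, 18.1, 18.1 and 17.1 in mesenteric low, 22.0, 21.9 and 25.3 in axillary high, 19.8, 20.8 and 20.8 in axillary low, 16.8, 16.1 and 15.1 in spleen high and 20.2, 14.1 and 12.1 in spleen low libraries. Axillary and spleen cells overlapped only through spleen low replicate 1. The means were 18.6 ± 2.65 in mesenteric, 21.8 ± 1.92 in axillary and 15.7 ± 2.75 in spleen cells (SD, n = 6 each). Axillary minus spleen was 0.48 on the log2 scale (SE 0.15, 1.40-fold, adjusted p = 0.0303 by limma). Mesenteric cells lay between and differed from neither at the threshold.

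The Fos region 12.2 kb past the start showed another order, with mesenteric cells highest. It held 29.8, 32.3 and 27.6 scaled summit reads in mesenteric high, 28.1, 19.1 and 35.1 in mesenteric low, 23.1, 19.4 and 25.3 in axillary high, 22.0, 15.0 and 18.5 in axillary low, 21.0, 28.1 and 17.1 in spleen high and 20.2, 18.1 and 22.0 in spleen low libraries. All mesenteric libraries but mesenteric low replicate 2 lay above every axillary library. The means were 28.7 ± 5.48 in mesenteric, 20.6 ± 3.67 in axillary and 21.1 ± 3.90 in spleen cells (SD, n = 6 each). Mesenteric minus axillary was 0.48 on the log2 scale (SE 0.14, 1.39-fold, adjusted p = 0.0162 by limma). Mesenteric minus spleen was close in size at 0.44 (SE 0.14) but missed the threshold (adjusted p = 0.0778), and axillary minus spleen was -0.04.

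The regions of Fosl2, Fosb and Jund present in all 18 libraries and nearest to a gene end passed in no comparison between organs. The Fosl2 region held 28.3, 24.6 and 23.1 scaled summit reads in mesenteric high, 22.1, 26.1 and 17.1 in mesenteric low libraries. It held 26.2, 19.4 and 23.1 in axillary high and 23.1, 24.2 and 20.8 in axillary low libraries. It held 21.0, 22.1 and 19.1 in spleen high and 18.3, 18.1 and 22.0 in spleen low libraries. Its log2 differences were 0.22 for mesenteric minus spleen, 0.18 for axillary minus spleen and 0.03 for mesenteric minus axillary, and the organs overlapped.

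The Fosb region 1.5 kb inside the gene held 34.3, 38.5 and 36.5 scaled summit reads in mesenteric high, 36.1, 38.2 and 41.2 in mesenteric low libraries. It held 40.9, 26.7 and 31.9 in axillary high, 38.5, 27.7 and 30.0 in axillary low, 30.4, 35.1 and 31.1 in spleen high and 40.4, 33.1 and 30.8 in spleen low libraries. The Jund region 1.1 kb inside the gene held 44.0, 40.8 and 40.2 in mesenteric high, 43.2, 33.1 and 46.2 in mesenteric low libraries. It held 33.6, 37.7 and 45.1 in axillary high, 41.8, 39.3 and 32.3 in axillary low, 39.9, 42.2 and 32.1 in spleen high and 38.5, 40.2 and 44.0 in spleen low libraries. The organs overlapped at both. Of the 3 comparisons, the differences furthest from 0 were 0.21 at Fosb (adjusted p = 0.198 by limma) and 0.11 at Jund (adjusted p = 0.535), both for mesenteric minus axillary.

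**Figure D4:**
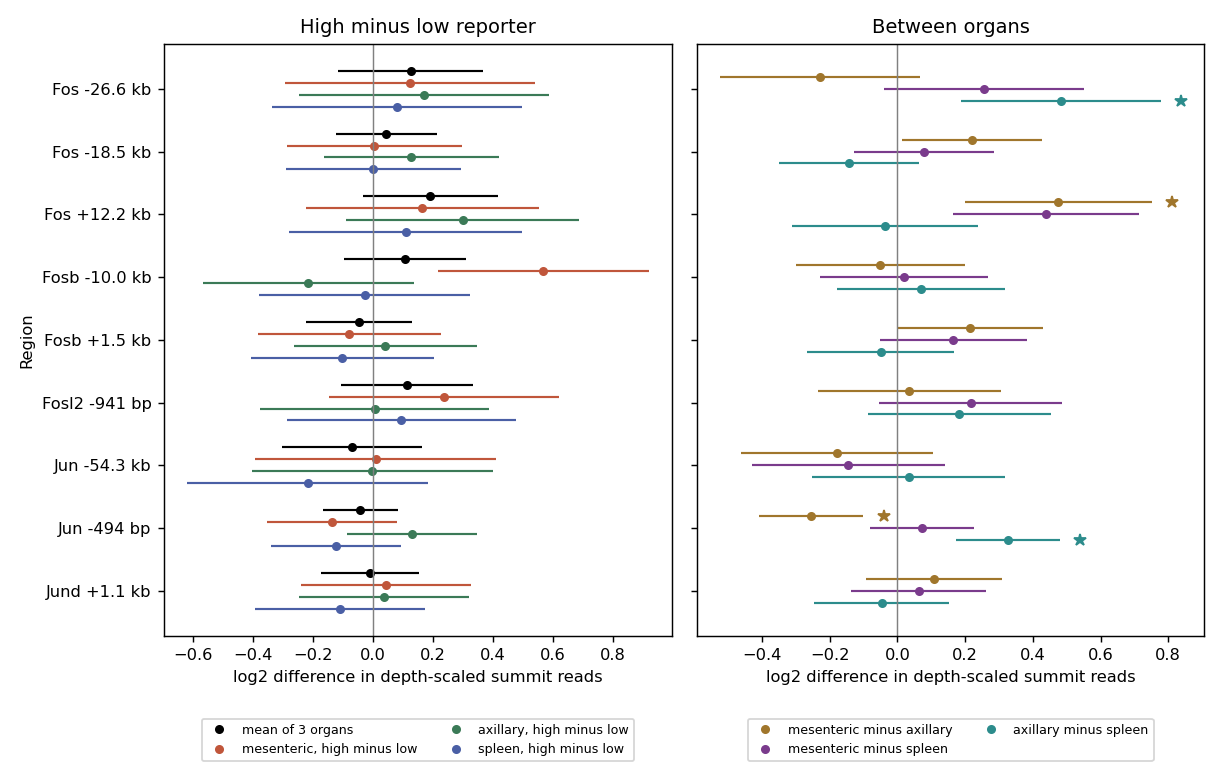
Log2 differences in scaled summit reads (points) with 95% confidence intervals (lines) at the 9 AP-1 gene regions present in all 18 libraries, for high minus low reporter cells (left, over all organs and in each) and between organs (right); a star marks an adjusted p under 0.05. No star stands on the left, and the 4 on the right are the Jun promoter (0.33 for axillary minus spleen, -0.25 for mesenteric minus axillary), Fos 26.6 kb upstream (0.48, axillary minus spleen) and Fos 12.2 kb past the start (0.48, mesenteric minus axillary).

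The fragment estimate of the libraries moved with these organ differences, since it was above 200 bp in 5 of 6 axillary libraries and in 1 other library. Organ and fragment estimate cannot be told apart in this design. With the log2 fragment estimate as a covariate, a fit chosen after seeing the data, all 4 differences kept their sign and none passed: axillary minus spleen was 0.29 at the Jun promoter (adjusted p = 0.132) and 0.60 at the Fos region 26.6 kb upstream (adjusted p = 0.115), and mesenteric minus axillary was -0.20 at the Jun promoter (adjusted p = 0.481) and 0.65 at the Fos region 12.2 kb past the start (adjusted p = 0.168, limma for all). In the 12 libraries with estimates up to 200 bp, of which 1 was axillary and was assumed to vary like the others, axillary minus spleen was 0.42 at the Jun promoter and 0.41 at the Fos region 26.6 kb upstream (adjusted p = 0.228 and 0.583 by limma). The axillary library with a short fragment estimate, axillary high replicate 2, held 72.9 scaled summit reads at the Jun promoter, and the spleen library with a long one, spleen low replicate 3, held 61.6. At the Fos region 26.6 kb upstream these 2 libraries held 21.9 and 12.1, and at the region 12.2 kb past the Fos start 19.4 and 22.0. Both lay within the range of the other libraries of their organ, except that spleen low replicate 3 lay below it 26.6 kb upstream. With 1 library of each kind, these values do not separate organ from fragment estimate. None of the 4 differences passed with the deposited fold enrichment in place of summit reads (adjusted p 0.195 to 0.656 by limma) or with 1 mean per group (0.0679 to 0.201), and all but axillary minus spleen at the Jun promoter were lost without some single library.

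**Figure D5:**
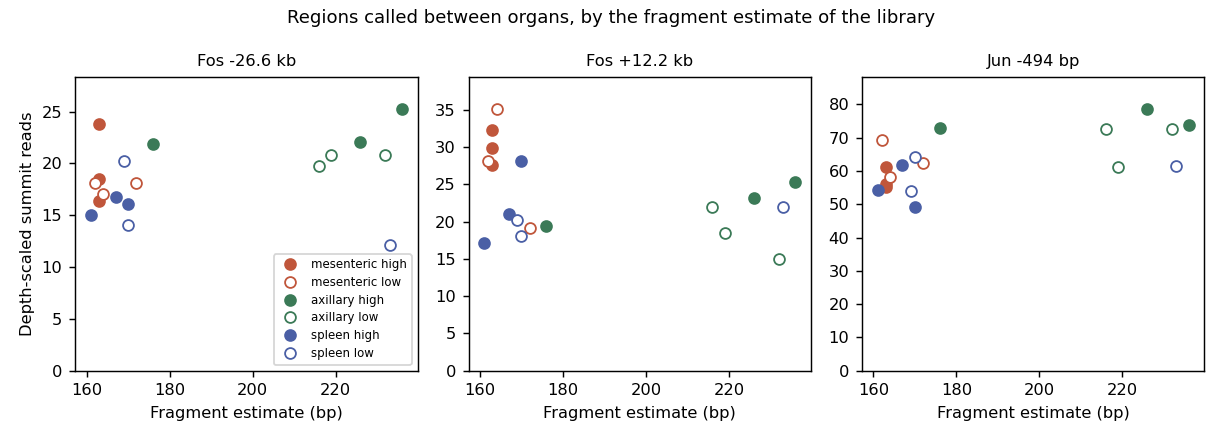
Scaled summit reads (vertical axes, from 0) against the fragment estimate of the library in bp (horizontal axes) at the 3 AP-1 gene regions that differed between organs; each point is a library, coloured by organ and filled for high reporter. Axillary high replicate 2, at 176 bp, holds 72.9 reads at the Jun promoter and 21.9 at Fos 26.6 kb upstream, within the axillary range, and spleen low replicate 3, at 233 bp, holds 61.6 and 12.1. At Fos 12.2 kb past the start they hold 19.4 and 22.0. Organ and fragment estimate cannot be told apart in this design.

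The region at the Fos start could be compared only in a fit that also took regions with a summit in at least 2 libraries of each group, since 1 library had no peak there. It held 32.8, 30.0 and 30.5 scaled summit reads in mesenteric high, 31.1, 31.1 and 27.1 in mesenteric low, 36.7, 24.3 and 27.5 in axillary high, 28.6 and 33.5 in 2 axillary low, 22.0, 24.1 and 21.1 in spleen high and 18.3, 22.1 and 24.2 in spleen low libraries. Every recovered mesenteric and axillary value lay above every spleen value, if only just for axillary high replicate 2 (24.3) and spleen low replicate 3 (24.2). The share of all regions with such a separation of organs was not counted. The library left out, axillary low replicate 3, had no peak there, so its value may be low. In deposited fold enrichment axillary and spleen libraries overlapped, with 5.31 in axillary high replicate 2 and 5.76 in spleen low replicate 2. In that fit mesenteric minus spleen was 0.44 on the log2 scale (SE 0.12, adjusted p = 0.0333) and axillary minus spleen 0.42 (SE 0.13, adjusted p = 0.0339, limma with 1 missing library left out), where 1.85% and 5.7% of the 11430 regions of that fit passed. These organ differences at the Fos start were not refitted with the fragment estimate as a covariate or with the fold enrichment. High minus low was 0.04 (95% confidence interval -0.16 to 0.25).

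The other regions added by that fit did not pass between organs or between reporter levels. Of all regions in the fit, 1.24% passed for high minus low over all organs. Within organs 1.51% passed in mesenteric, 0.289% in axillary and 0.192% in spleen cells, and 8.97% passed for mesenteric minus axillary. The added regions were the starts of Fosb, Junb and Batf and the region 2.2 kb past the Junb start. Their high minus low differences over all organs were -0.05, 0.03, 0.10 and 0.06 on the log2 scale. The start of Batf held 14.9, 14.6 and 11.9 scaled summit reads in mesenteric high, 15.1 in each of the mesenteric low, 21.0, 18.2 and 14.3 in axillary high, 15.4, 10.4 and 12.7 in axillary low, 12.6 and 12.05 in 2 spleen high and 12.5, 15.1 and 12.1 in spleen low libraries. Its axillary high minus low difference was 0.50 (SE 0.23, adjusted p = 0.489 by limma).

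The start of Fosb held 23.1, 20.8 and 24.6 scaled summit reads in mesenteric high, 14.1, 18.1 and 21.1 in mesenteric low libraries. It held 25.2, 20.7 and 24.2 in axillary high and 29.7, 27.7 and 23.1 in axillary low libraries. It held 19.1 and 17.1 in 2 spleen high and 23.1, 27.1 and 22.0 in spleen low libraries. High minus low was 0.40 in mesenteric cells (adjusted p = 0.367 by limma), -0.17 in axillary cells (adjusted p = 0.846) and -0.36 in spleen cells (adjusted p = 0.650). The 2 spleen high libraries lay below the 3 spleen low libraries, and how often 2 and 3 libraries lie apart over all regions was not counted. The mesenteric and spleen differences stood 0.76 apart, with an unadjusted p of 0.00952 and an adjusted p of 0.280 by limma.

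The region 2.2 kb past the Junb start held 32.8, 33.1 and 26.8 scaled summit reads in mesenteric high, 22.1, 24.1 and 26.1 in mesenteric low libraries. It held 25.2 and 20.9 in 2 axillary high and 33.0 and 24.2 in 2 axillary low libraries. It held 28.3, 22.1 and 24.1 in spleen high and 26.0, 21.1 and 23.1 in spleen low libraries. High minus low was 0.37 in mesenteric cells, where the groups did not overlap (adjusted p = 0.359 by limma), -0.31 in axillary cells (adjusted p = 0.705) and 0.11 in spleen cells (adjusted p = 0.901). Among regions with a summit in every library, 15.7% of pairs of groups did not overlap. That share was not counted for the regions of this fit. The mesenteric and axillary differences stood 0.69 apart (unadjusted p = 0.0160, adjusted p = 0.419 by limma). The start of Junb held 26.9 to 30.5 in mesenteric high, 17.1 to 34.1 in mesenteric low, 24.1 and 28.6 in 2 axillary high, 23.1 and 39.3 in 2 axillary low, 27.1 to 31.1 in spleen high and 21.2 and 33.1 in 2 spleen low libraries, with all groups overlapping.

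The AP-1 regions did not share a single profile over the libraries. For each of Fos, Fosb, Fosl2, Jun and Jund the region nearest to a gene end was taken among those with a summit in all 18 libraries (Fos 12.2 kb past the start, Fosb 1.5 kb inside the gene, Fosl2 941 bp upstream, the Jun promoter and Jund 1.1 kb inside the gene). Between these 5, Pearson's r of centred log2 summit reads over 18 libraries ran from -0.28 (Fos 12.2 kb past the start with Jun) to 0.63 (Fos 12.2 kb past the start with Jund). The genes whose own gene-end region was most like the mean of these 5 were Tpgs1 (r = 0.73), Mlycd (0.71), Zfp157 (0.68), Pard6b (0.68) and Igsf8 (0.66), of 5418 genes compared over the same 18 libraries, as a description of likeness between libraries that share depth and fragment differences. How high the best of 5418 unrelated profiles would reach was not tested, so these genes are not set apart from unrelated ones.

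The other basic leucine zipper genes examined were 15, of which 13 had a region, with 18 regions tested for summit reads. Their median log2 difference of high minus low was -0.04. In high cells 1 region was higher and 0 were lower, where 1.6% of all regions passed. That region lay near Bach2, a repressor that keeps T cells naive, with a log2 difference of 0.43 (SE 0.12, adjusted p = 0.0385 by limma). Between organs, another Bach2 region was higher in axillary than in spleen cells (0.54), 1 Bach1 region was higher in mesenteric than in axillary cells (0.30) and 2 regions of Crem, a cAMP-responsive factor that binds the CRE, were lower (-0.41 and -0.23). Of all regions, 6.83% passed for axillary minus spleen and 11.0% for mesenteric minus axillary. Of 15 tested regions of the 13 kinases and regulators upstream of AP-1, 0 passed for high minus low over all organs. Within axillary cells 1 passed, where 0.308% of all regions did. That region lay 154 bp from an end of Mapk8, which encodes the kinase JNK1, and was higher in axillary high than in axillary low cells by 0.59 (SE 0.15, adjusted p = 0.0445 by limma). The Mapk8 call was lost with the deposited fold enrichment in place of summit reads, where 0 of all regions passed within axillary cells. Between organs 2 of the 15 regions were higher in axillary than in spleen cells, beside 6.83% of all regions passing. Another 2 calls were lower in mesenteric than in axillary cells, beside 11.0%. A region 74654 bp from an end of Rasgrp1, the exchange factor that carries TCR signals to Ras, passed in both comparisons, with 0.63 and -0.67 (adjusted p = 0.00396 and 0.0014 by limma). The others lay near Map3k1, a kinase of the JNK pathway (0.49 for axillary minus spleen, adjusted p = 0.0417), and Map2k7, which phosphorylates JNK (-0.34 for mesenteric minus axillary, adjusted p = 0.0233). Organ and fragment estimate cannot be told apart in any of these calls between organs. With the fragment estimate as a covariate, 148 of all regions passed for axillary minus spleen, against 577 without it. For mesenteric minus axillary 30 passed, against 927. The values of the named regions in that fit are not given here.

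The 10 activation target genes had 15 tested regions. Between high and low cells 4 were higher and 0 lower, all at Nr4a1, the gene of the reporter, with log2 differences of 0.16 to 0.52, and within organs 1 passed in mesenteric, 4 in axillary and 2 in spleen cells, all at Nr4a1 and all higher in high cells. Whether reads of a reporter transgene contribute there was not tested. Of all regions, 1.6% passed over the organs together, 2.04% within mesenteric, 0.308% within axillary and 0.213% within spleen cells. With the deposited fold enrichment in place of summit reads, 0 of all regions passed within axillary cells. Between axillary and spleen cells 6 were higher and 0 lower, 4 of them at Nr4a1 and 1 each at the immediate-early genes Egr1 (0.33) and Egr2 (0.49), and between mesenteric and axillary cells 0 were higher and 6 lower. Those 6 were the 4 at Nr4a1 and 1 each at Egr2 (-0.45) and Cd69 (-0.29). Between mesenteric and spleen cells 1 region of Nr4a1 was lower (-0.18, adjusted p = 0.0298 by limma). Of all regions, 6.83% passed for axillary minus spleen, 11.0% for mesenteric minus axillary and 1.46% for mesenteric minus spleen. Organ and fragment estimate cannot be told apart at these regions, and their values with the fragment estimate as a covariate are not given here.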

How the data were processed

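ATAC-seq peak lists of 18 libraries (6 groups of 3) on mouse build mm10 were used, 1 list per library. Trimmomatic 0.33, Bowtie2, bedtools and MACS are named in the submitters' processing notes; versions of Bowtie2, bedtools and MACS, and how duplicates and read ends were handled, were not stated in those sources. The deposited fold enrichment is the ratio of summit reads to local background, the deposited −log10 p and −log10 q come from the caller (smallest −log10 p 5.001), and the deposited score is a whole-number form of the −log10 p. These are the authors' values; they served to recover reads and to rank peaks within a list, and the fold enrichment was set across libraries only in 1 alternative.

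The merge took 314425 peaks (chromosomes 1 to 19 and X) out of 314829. Whole summit reads and local background were recovered from the fold and the Poisson p, with exactly 1 matching pair within 0.002 for 99.3% of peaks; the 0.687% with 2 pairs were left out. Depth, given as reads per 10 kb, is a relative measure. Genes and promoters came from RefSeq tables (GRCm38.p6, 21631 protein-coding genes, 92.5% of regions assigned), and no genome sequence was used. Summit reads were median-centred per library on a log2 scale and fitted with limma 3.58.1 (R 4.3.3, trend) with 6 group means. Presence was tested with Fisher's exact and Fisher-Freeman-Halton tests (Python 3.11.15, scipy 1.17.1). Tests were two-sided, with Benjamini-Hochberg adjustment over all regions at 0.05. The presence tests and the limma fit for high minus low were also run on simulated regions, and the outcome is not given here. For equal depth, reads were thinned to the shallowest library and peaks under a −log10 p of 5 were dropped.

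The genes, lists and rules were chosen with earlier results of these data known. Every region of the 8 genes is accounted for, and those present in 6 to 12 libraries are given in full, as are, for each gene, the region nearest to a gene end among those in 18 libraries, and those that passed a test. Regions of the 3 lists of related genes were named where they passed, and the 5 most alike genes by Pearson's r. Some marker genes are not reported here.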

Additional observations from a re-analysis of the deposited data

How the results depend on the processing

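Of 63 differences at single AP-1 regions, refitted in 1584 alternatives, 1447 kept their direction and their side of the threshold, 31 lost it and 10 gained it in the same direction. The remaining 96 changed sign without passing before or after, at 41 differences of at most 0.18 in size (adjusted p of at least 0.463 by limma), among them the Jun promoter for mesenteric minus spleen (0.07, against -0.11 with the deposited fold enrichment). The 4 calls between organs were lost in the same direction with the deposited fold enrichment in place of summit reads, with 1 mean per group, and in the 2 fits chosen after seeing the data, with the fragment estimate as a covariate and with only the libraries whose estimate was at most 200 bp, which left 1 axillary library, assumed to vary like the others. Axillary minus spleen at the Jun promoter passed without any 1 library (adjusted p 0.00163 to 0.0213 by limma, up to 0.656 over all alternatives). The Fos region 26.6 kb upstream was lost without axillary high replicate 3, axillary low replicate 2 or 3, spleen high replicate 3 or spleen low replicate 2 or 3 (up to 0.0927, and 0.583 over all alternatives). Mesenteric minus axillary at the Fos region 12.2 kb past the start was lost without mesenteric low replicate 3 or axillary low replicate 2 (up to 0.0995, and 0.445 over all). At the Jun promoter it was lost without mesenteric high replicate 1, mesenteric low replicate 3, axillary high replicate 1 or axillary low replicate 1 or 2 (up to 0.0741), with quantile normalization (-0.10, adjusted p = 0.407) and with genome background scaling (-0.07, adjusted p = 0.558). Genome background scaling shifted the median of all regions by 0.19 for mesenteric minus axillary and 0.21 for mesenteric minus spleen, and relative to that shift the Jun value was close to the one reported.

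The number of AP-1 regions called was 0 for high minus low over all organs and in axillary and spleen cells under every alternative and without any 1 library; in mesenteric cells it was 1 with quantile normalization (Fosb, 10.0 kb upstream, 0.64, adjusted p = 0.0499) and 0 without any 1 library. For mesenteric minus spleen it was 5 with genome background scaling, 1 with regions in at least 2 libraries of each group, and 0 to 1 without 1 library (the 1 without mesenteric low replicate 2). For axillary minus spleen it was 0 in each of the 4 fits that lost all calls, and 1 to 2 without 1 library. For mesenteric minus axillary it was 0 in the same 4 fits, 4 with genome background scaling, 1 with quantile normalization, and 0 to 2 without 1 library. Presence tests called 0 AP-1 regions under every alternative.

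Over all regions, high minus low called 135, against 60 with genome background scaling, 67 with quantile normalization, 20 with the fold enrichment, 77 with the covariate, 34 with estimates up to 200 bp, 15 with 1 mean per group and 74 to 154 without 1 library. Mesenteric high minus low called 172, against 96, 65 and 21 in the first 3 of these and 51 to 225 without 1 library; axillary 26, against 15, 16 and 0, and 14 to 27; spleen 18, against 5 with the fold enrichment, and 4 to 19. Mesenteric minus spleen called 123, against 1826 with genome background scaling, 3 with the fold enrichment, 211 with regions in at least 2 libraries of each group, 51 with the covariate, 2 with 1 mean per group and 23 to 133 without 1 library. Axillary minus spleen called 577, against 70 with the fold enrichment, 148 with the covariate, 30 with estimates up to 200 bp, 139 with 1 mean per group and 412 to 597 without 1 library. Mesenteric minus axillary called 927, against 2087 with genome background scaling, 219 with the fold enrichment, 30 with the covariate, 29 with estimates up to 200 bp, 244 with 1 mean per group and 610 to 1001 without 1 library. Presence between organs called 0 to 25 of all regions without 1 library. The cause of these moves was not tested. Libraries with the same replicate number did not deviate together (Pearson's r -0.03 to 0.04 in 45 pairs), and with the replicate block the counts were 137 for high minus low, 577 for axillary minus spleen and 925 for mesenteric minus axillary, and the AP-1 counts were the same. Standard errors at single AP-1 regions were 0.06 to 0.12 for high minus low and 0.08 to 0.15 between organs on the log2 scale. They rest on a spread between libraries of a group that was below counting noise. These standard errors, and the p-values from them, may therefore be too small.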
